A study of Mus musculus with 16 samples.

Results

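The unfolded protein response was followed through 10 genes in mouse keratinocytes treated with the phorbol ester TPA. They were all probes of the raw signal table whose platform symbol is Hspa5, Hsp90b1, Pdia4, Calr, Dnajb9, Herpud1, Xbp1, Atf4, Ddit3 or Trib3, which gave 13 probes for 10 of the 16593 genes with a symbol on the array. RNA came from keratinocytes of newborn (P1) pups on an FVB/N background (FVBN in the labels), each line grown from 1 individually genotyped pup. WT-NT and WT-TPA are euploid cells, untreated or given 0.2 μM TPA for 12 h, and Ts-NT and Ts-TPA are the same from pups trisomic for the Ts1Rhr segment of chromosome 16, with 4 arrays in each of the 4 groups. Within a genotype, an untreated and a TPA array that share a replicate number were treated as 1 culture. TPA activates protein kinase C and is the tumor promoter of skin carcinogenesis. None of the 10 genes lies on chromosome 16.

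The endoplasmic reticulum (ER) folds secreted and membrane proteins, and 3 sensors in its membrane respond when unfolded proteins accumulate. PERK slows translation while favoring that of Atf4, whose protein switches on Ddit3 (CHOP) and Trib3. IRE1 splices the Xbp1 mRNA into the form that encodes an active transcription factor, and ATF6 is released from the membrane by proteolysis. XBP1 and ATF6 raise the chaperones and the degradation machinery. Keratinocytes are known to use this response during differentiation.

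ATF6 and XBP1 act through the ER stress response element, so the promoters of the members that carry its letters are shown before the values. The windows are RefSeq sequence of the C57BL/6J reference (GRCm38.p6), from 250 bases before to 50 bases after the annotated start, whereas the cells were FVB/N. Every member had 1 window. The letters of 4 motifs were searched on both strands with no mismatch allowed: ERSE (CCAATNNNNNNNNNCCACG), ERSE-II (ATTGGNCCACG), the UPRE core (TGACGTGG) and the C/EBP-ATF element (TGATGNAA). ERSE was in the windows of Hspa5, Hsp90b1 and Calr, and in 0.119% of all 32851 windows of the same length. ERSE-II was in that of Herpud1, and in 0.0365% of all windows. The C/EBP-ATF element was in those of Herpud1 and Trib3 and in 3.97% of all, and the UPRE core was in none of the 10 and in 0.676% of all. ERSE and ERSE-II share the letters CCACG, and no matches in the members' windows overlapped. Capitals mark the matches, which read in reverse complement where the match was on the opposite strand.
Hspa5: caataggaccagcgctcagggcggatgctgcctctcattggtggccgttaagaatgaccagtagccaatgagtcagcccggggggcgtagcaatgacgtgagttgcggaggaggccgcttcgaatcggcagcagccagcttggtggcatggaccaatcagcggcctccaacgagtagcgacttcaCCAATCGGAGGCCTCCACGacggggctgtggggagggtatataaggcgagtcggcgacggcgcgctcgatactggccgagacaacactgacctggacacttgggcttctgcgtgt
Hsp90b1: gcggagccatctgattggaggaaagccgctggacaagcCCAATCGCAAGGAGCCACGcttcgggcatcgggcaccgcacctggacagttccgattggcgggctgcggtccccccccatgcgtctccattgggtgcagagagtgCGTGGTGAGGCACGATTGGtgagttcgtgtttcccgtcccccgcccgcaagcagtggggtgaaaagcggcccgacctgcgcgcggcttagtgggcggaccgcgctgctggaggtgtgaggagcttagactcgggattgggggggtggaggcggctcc
Calr: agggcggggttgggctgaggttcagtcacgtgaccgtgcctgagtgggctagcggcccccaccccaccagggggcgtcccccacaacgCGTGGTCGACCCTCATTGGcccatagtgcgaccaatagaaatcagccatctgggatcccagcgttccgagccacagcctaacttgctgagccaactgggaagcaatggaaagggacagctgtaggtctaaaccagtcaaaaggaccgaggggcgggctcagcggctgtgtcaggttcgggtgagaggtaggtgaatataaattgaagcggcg
Herpud1: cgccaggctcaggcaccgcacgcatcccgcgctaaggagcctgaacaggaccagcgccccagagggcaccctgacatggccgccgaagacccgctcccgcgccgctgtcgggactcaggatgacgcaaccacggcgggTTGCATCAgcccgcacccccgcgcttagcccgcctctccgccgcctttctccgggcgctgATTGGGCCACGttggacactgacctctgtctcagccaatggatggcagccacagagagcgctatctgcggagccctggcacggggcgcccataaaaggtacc
Hspa5 (chr2:34771840-34772139, plus strand) had its ERSE from base -65 to -47 relative to the start. Hsp90b1 (chr10:86705395-86705694, minus strand) had one on its own strand from -212 to -194 and one on the opposite strand from -107 to -89. Calr (chr8:84846882-84847181, minus strand) had one on the opposite strand from -162 to -144. Herpud1 (chr8:94386179-94386478, plus strand) had ERSE-II from -52 to -42 and the C/EBP-ATF element on the opposite strand from -112 to -105. These are matches of letters. No binding was measured.

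Signals are given as log2 values of a variance stabilizing (vsn) model, a scale that compresses changes near background. The authors' deposited log2 values compressed them more. Trib3 in WT-NT replicates 1 and 4 stood at 4.88 and 6.21 here, and at 7.47 and 7.81 there. The detection p of a probe sets it against the negative controls on its array, and a probe was tested if that p did not exceed 0.01 in 4 or more of the 8 arrays from either genotype. All 10 genes passed, through 12 of the 13 probes, while the second Dnajb9 probe was detected on none of the 16 arrays. Apart from Trib3 every member was detected on all 16 arrays. Trib3, a pseudokinase induced by ATF4 and CHOP, passed through WT alone: it was detected on 3 of 4 arrays in WT-NT and in WT-TPA, on 0 in Ts-NT and on 1 in Ts-TPA. Values below come from the brightest probe of a gene unless said otherwise, and called genes are those with 1 or more probes at an adjusted p under 0.05, where the adjustment runs over every probe tested.

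The cells had the keratins of their label, with Krt14 at a mean of 15.60 and Krt5 at 11.90 (log2), and 11 of 13 keratinocyte markers past the filter. Krt1 and Krt15 were undetected on all arrays. Melanocyte genes were also high. Of 8 such markers 7 passed, with Tyrp1 at 13.06. Their vsn-model signals, taken out of log2 and summed on each array, ranged over 10368 to 20207 (WT-NT), 11792 to 18334 (WT-TPA), 10724 to 16566 (Ts-NT) and 10632 to 14351 (Ts-TPA). Fibroblast markers passed in 6 of 13, with Pdgfra, Pdgfrb, Lum and Twist1 undetected. Their sums on the same vsn-model scale were 762 to 1277, 832 to 1363, 910 to 1472 and 974 to 1379 in the same order of groups. None of 6 immune or 5 endothelial markers passed. No marker of any list was called in the mean TPA response, and the part of other cells in the results was not tested. In such bulk RNA, fewer cells of a type and less RNA per cell cannot be told apart. WT arrays had median raw signals of 156 to 172 and Ts arrays of 198 to 275, so near background a genotype difference and one of array brightness cannot be told apart.

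To see how TPA moved these genes, the treated and untreated arrays of each culture were compared. With both genotypes averaged, TPA raised Herpud1, an ER membrane protein of the degradation machinery, 1.57-fold and Ddit3, the transcription factor CHOP, 1.82-fold, and it lowered Xbp1 1.53-fold. In WT cells TPA raised Hspa5, the chaperone BiP, 2.18-fold, together with Herpud1 and Ddit3. Thus 2 of the 10 members were called higher in the mean response, where 4.4% of the 6063 genes tested were called higher, and 1 was called lower, where 6.28% were. In WT alone 3 members were called, all higher, against 2.66% of genes in either direction and 1.58% higher. In Ts alone none was called, against 1.06% of genes, and 3 members had an unadjusted p below 0.05, as did 15.4% of all genes. Atf4 and the chaperone Hsp90b1 were not called in any comparison. Without the culture as a block, Xbp1 alone was called in the mean response and no member in WT. The sizes depended on the scaling too. On the authors' deposited log2 values the change of Hspa5 in WT was 0.81, against 1.12 on the scale used here. The mean response of Ddit3 was 0.59 there, against 0.86 here.

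Over the 9 members other than Trib3 the median mean response was 0.39 on the log2 scale, with 8 of them above the median of all genes, which was -0.08. It was 0.26 against -0.06 in WT, with 7 above, and 0.33 against -0.10 in Ts, with 8 above. The exception in all 3 was Xbp1, joined in WT by Atf4. With Trib3, which was near background, the medians over 10 were 0.29, 0.27 and 0.23.

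**Figure D1:**
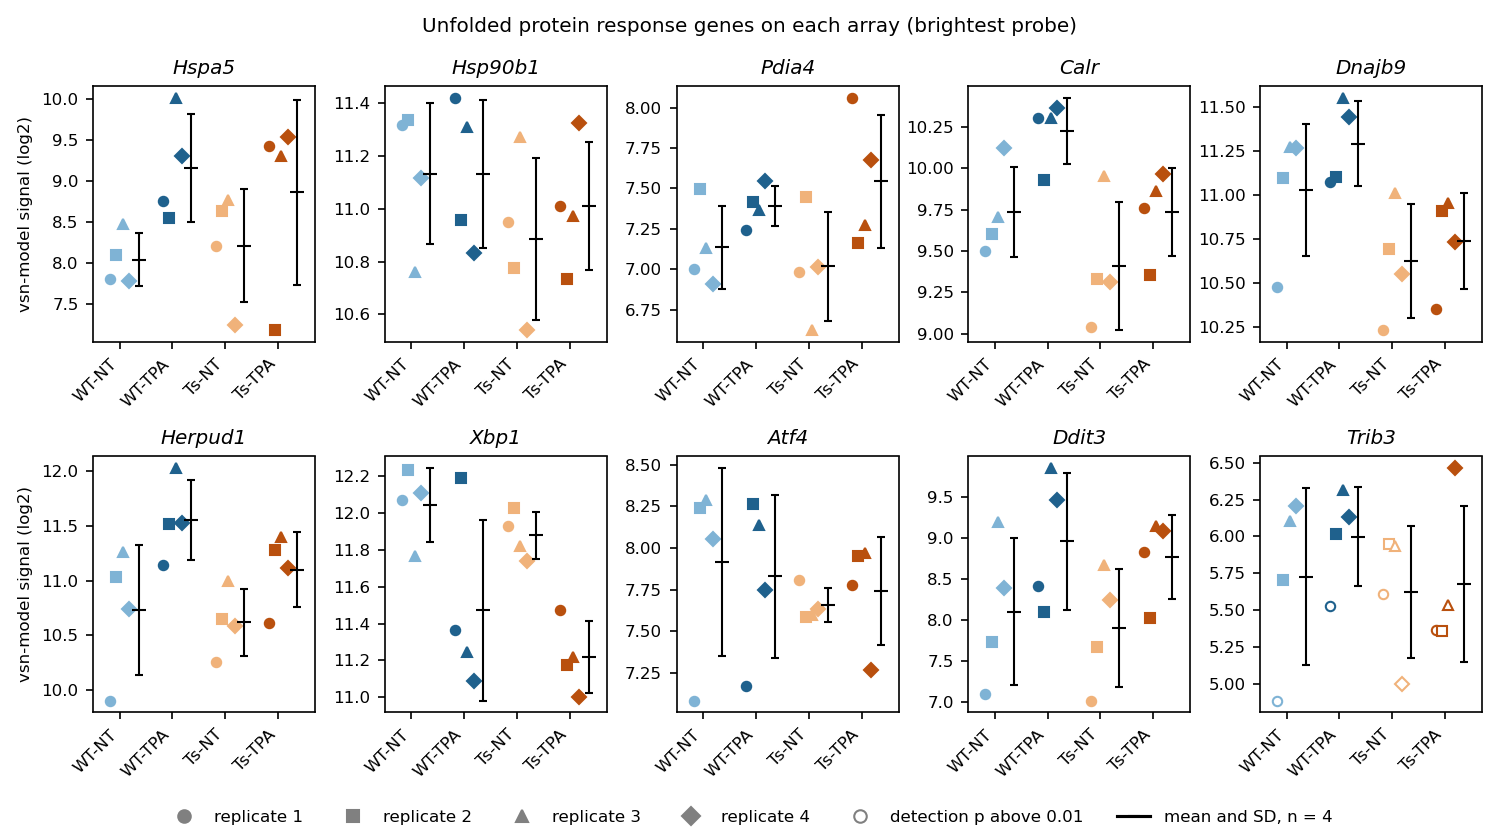
Log2 signal (vertical axis) of the brightest probe of each of the 10 genes on the 16 arrays, by group (horizontal axis). Symbols mark replicate numbers, open symbols a detection p above 0.01, and bars the mean and SD of 4 arrays. Xbp1 was lower with TPA in both genotypes, Herpud1 and Ddit3 were higher, and Hspa5 on the Ts-TPA array of replicate 2 stood at 7.18, below the other 3 of its group.

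Among the chaperones, Hspa5 binds unfolded proteins in the ER lumen and holds the sensors inactive. It stood at 7.81, 8.10, 8.47 and 7.78 in WT-NT replicates 1 to 4, and at 8.76, 8.56, 10.02 and 9.31 in WT-TPA. All 4 treated arrays were above all 4 untreated ones. The change was 1.12 ± 0.22 on the log2 scale (SE, 4 cultures; limma adjusted p = 0.0313), with rises of 0.95, 0.45, 1.55 and 1.54. This call was lost without WT replicate 3 (adjusted p = 0.152) or replicate 4 (adjusted p = 0.219).

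In Ts the same gene stood at 8.21, 8.63, 8.77 and 7.25 untreated and at 9.43, 7.18, 9.30 and 9.53 with TPA. Replicates 1, 3 and 4 rose by 1.22, 0.53 and 2.29, while replicate 2 fell by 1.45. The array of replicate 2 with TPA had a median raw signal of 233 and 24.8% of probes detected, against 24.8% to 34.5% over the 16 arrays. The Ts-TPA array of replicate 4, whose culture rose by 2.29, had nearly the same share, 24.99%. Why replicate 2 fell was not tested. The change in Ts was 0.65 ± 0.46 (adjusted p = 0.590) and the mean response over both genotypes was 0.89 ± 0.30 (adjusted p = 0.0847). Without Ts replicate 2, the culture that fell, the mean response was 1.23 (adjusted p = 0.00343). No other fit that left out 1 culture called it, and the adjusted p reached 0.195 among them. Replicate 4, the Ts culture with the largest rise, had the 2 arrays that shared least beyond the group means. The correlation of their deviations was 0.07, against 0.19 to 0.45 for the other cultures. Its untreated array correlated more, at 0.10, with a Ts-TPA array of another number, so its pairing is not borne out by the data.

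Calr encodes calreticulin, the lectin chaperone that binds calcium in the ER lumen. Its mean response was 0.41 ± 0.14 (adjusted p = 0.0840), with 7 of 8 cultures higher. In WT it went from 9.50, 9.61, 9.71 and 10.12 to 10.31, 9.93, 10.31 and 10.36, a change of 0.49 ± 0.18 (adjusted p = 0.174), and the groups overlapped. In Ts it went from 9.04, 9.33, 9.95 and 9.31 to 9.76, 9.36, 9.86 and 9.97, again with overlap.

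Pdia4, a protein disulfide isomerase, had a mean response of 0.39 ± 0.16 (adjusted p = 0.138), with 6 of 8 cultures higher. Both exceptions were replicate 2, at -0.08 in WT and -0.29 in Ts. Without Ts replicate 2, a culture that fell, the mean response was 0.53 and passed (adjusted p = 0.0390). This was the only 1 of 15 alternative fits in which Pdia4 passed. With another culture left out its adjusted p reached 0.301. The largest rise was 1.07, in Ts replicate 1.

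Hsp90b1 (GRP94), the ER paralog of HSP90, holds 2 matches to ERSE in its promoter window. It had a mean response of 0.06 ± 0.15 (adjusted p = 0.840), with 4 cultures higher and 4 lower. Its 95% interval was -0.27 to 0.39. Dnajb9 (ERdj4), a co-chaperone of BiP, was higher in 7 of 8 cultures by small amounts, 0.19 ± 0.12 (adjusted p = 0.354), with single changes from -0.06 to 0.59.

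Herpud1 was the member with the lowest adjusted p in the mean response, 0.65 ± 0.12 (adjusted p = 0.00672), and all 8 cultures rose. In WT it went from 9.90, 11.03, 11.26 and 10.74 to 11.14, 11.52, 12.03 and 11.53. In Ts it went from 10.26, 10.65, 10.997 and 10.58 to 10.61, 11.28, 11.39 and 11.12. The groups overlapped in each genotype, and the rises within cultures were 0.49 to 1.24 (WT) and 0.36 to 0.63 (Ts). Its second probe gave a mean response of 0.51 ± 0.13 (adjusted p = 0.0319) with 7 of 8 cultures higher. In WT alone that probe was not called, at 0.50 ± 0.19 (adjusted p = 0.189). By the brighter probe the change in WT alone was 0.82 ± 0.18 (adjusted p = 0.0488), and leaving out any 1 of the 4 cultures raised the adjusted p to between 0.0895 and 0.226. In Ts it was 0.48 ± 0.20 (adjusted p = 0.348).

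**Figure D2:**
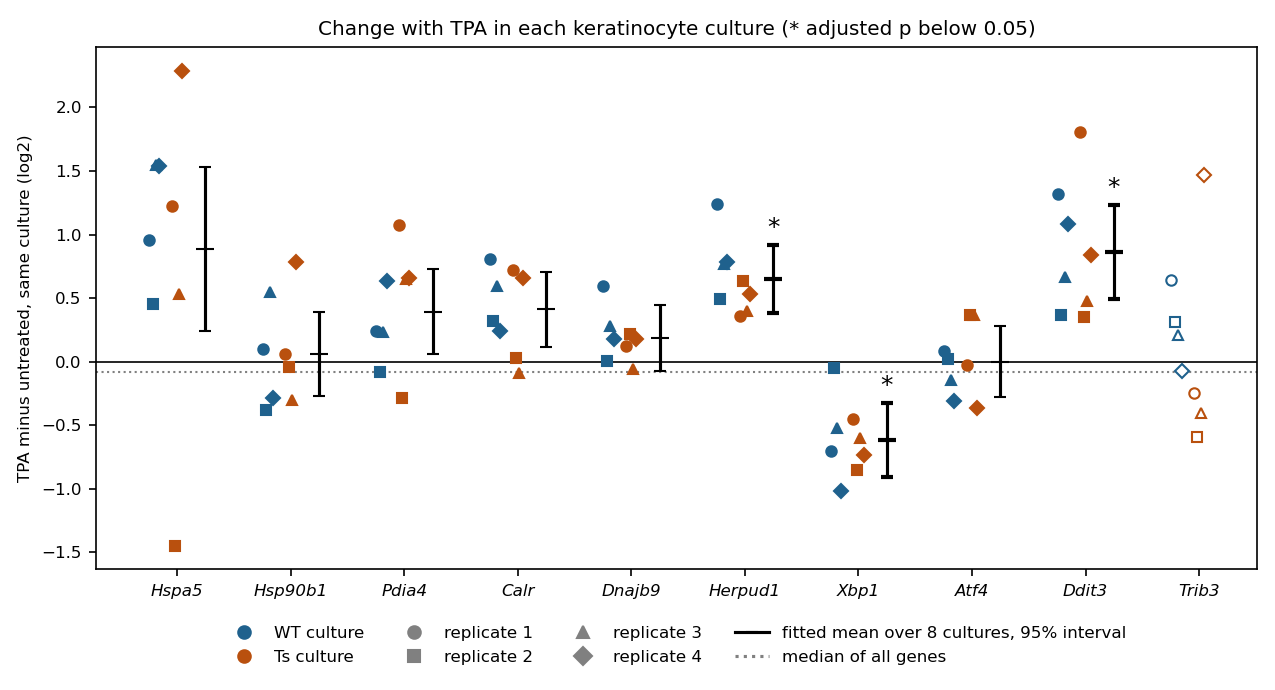
Change in log2 signal with TPA within each culture (vertical axis, TPA minus untreated) for the 10 genes (horizontal axis), WT cultures in blue and Ts cultures in orange, with symbols for replicate numbers. Black bars are the fitted mean over 8 cultures with its 95% interval, the asterisk marks an adjusted p below 0.05, and the dotted line is the median of all genes at -0.08. Trib3, near background, has open symbols and no fitted bar. Herpud1 and Ddit3 rose and Xbp1 fell in 8 of 8 cultures, and Hspa5 spread from -1.45 to 2.29.

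Of the transcription factors, Xbp1 encodes the target of IRE1. It stood at 12.07, 12.24, 11.77 and 12.11 in WT-NT and at 11.37, 12.19, 11.25 and 11.09 in WT-TPA. Replicate 2 hardly moved (-0.05), and the others fell by 0.71, 0.52 and 1.02. In Ts it stood at 11.93, 12.03, 11.82 and 11.74 untreated and at 11.47, 11.18, 11.22 and 11.0004 with TPA, without overlap. Its mean response was -0.62 ± 0.13 (adjusted p = 0.0128), with all 8 cultures lower, while the change was -0.57 ± 0.20 in WT (adjusted p = 0.158) and -0.66 ± 0.20 in Ts (adjusted p = 0.189). Without WT replicate 4 the mean response was -0.54 and just missed the threshold (adjusted p = 0.0505). One probe measures the transcript here, and the spliced and unspliced forms were not told apart.

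Ddit3 encodes CHOP, which promotes cell death under lasting ER stress. In WT it went from 7.10, 7.74, 9.19 and 8.39 to 8.42, 8.10, 9.86 and 9.47, and in Ts from 7.02, 7.67, 8.67 and 8.25 to 8.83, 8.03, 9.15 and 9.09. Treated and untreated groups overlapped in both genotypes, and all 8 cultures rose, by 0.36 to 1.81. The mean response was 0.86 ± 0.17 (adjusted p = 0.00842). In each genotype alone this probe was not called, at 0.86 ± 0.20 in WT (adjusted p = 0.0552) and 0.87 ± 0.26 in Ts (adjusted p = 0.186).

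The call of Ddit3 in WT came from its second, dimmer probe, which changed by 1.00 ± 0.22 (adjusted p = 0.0488). It was called in no other comparison. Its mean response was 0.65 ± 0.20 (adjusted p = 0.0631), with 6 of 8 cultures higher, and in Ts it went from 6.26, 6.89, 8.63 and 7.20 to 7.46, 6.83, 7.95 and 7.97. The probes of Ddit3 differed in sign in Ts replicates 2 and 3, where this one changed by -0.06 and -0.68 and the brighter one rose by 0.36 and 0.48.

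Atf4, which translates the PERK signal into transcription, had a mean response close to 0, with a 95% interval of -0.28 to 0.28, and 4 cultures each way. Its regulation is known to lie mainly in translation, which these arrays do not measure. Trib3 ranged over 4.88 to 6.21 (WT-NT), 5.53 to 6.32 (WT-TPA), 4.995 to 5.95 (Ts-NT) and 5.35 to 6.46 (Ts-TPA), with 4 of 8 cultures higher. No Ts-NT array detected it, and the means of the other groups lay below the bound that sets for Ts-NT (6.05), so no fold or fitted change that rests on Ts-NT is given for it.

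Whether trisomy changed these genes was asked in untreated cells, after TPA, and in the response itself. No member was called in any of the 3 comparisons. Between Ts-NT and WT-NT 0 of 10 members were called, against 0.066% of all genes (4 genes), and none had an unadjusted p below 0.05, against 15.3% of all genes. Between Ts-TPA and WT-TPA 0 were called, against 0.0165% (1 gene), and Calr and Dnajb9 had an unadjusted p below 0.05, as did 17.4% of all genes, a share close to theirs. For the difference in TPA response the count was 0 of 10, against 0% of all genes, with no member but 278 genes (4.59%) at an unadjusted p below 0.05. These are limma counts. With the replicate number as a block, 96 genes were called untreated and 141 after TPA, and still no member.

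The 95% intervals were wide beside most of these differences. After TPA those of Dnajb9 (-1.03 to -0.08) and Calr (-0.95 to -0.03) had both ends negative. These intervals are not adjusted for the number of probes tested. In untreated cells the differences ran from -0.41 for Dnajb9 to 0.17 for Hspa5, with a median of -0.20 over the 9 members other than Trib3, where that of all genes was -0.15. After TPA they ran from -0.56 for Dnajb9 to 0.15 for Pdia4, with a median over the same 9 members of -0.25 against -0.20. Dnajb9 stood at 11.07, 11.10, 11.55 and 11.44 in WT-TPA and at 10.35, 10.91, 10.95 and 10.73 in Ts-TPA, without overlap, a difference of -0.56 ± 0.23 (adjusted p = 0.281). Relative to the median of all genes this was -0.36, and with the replicate block its adjusted p was 0.0781. For Calr after TPA the difference was -0.49 ± 0.22 (adjusted p = 0.313). For Hspa5 the interval of the difference in untreated cells was -0.78 to 1.13.

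**Figure D3:**
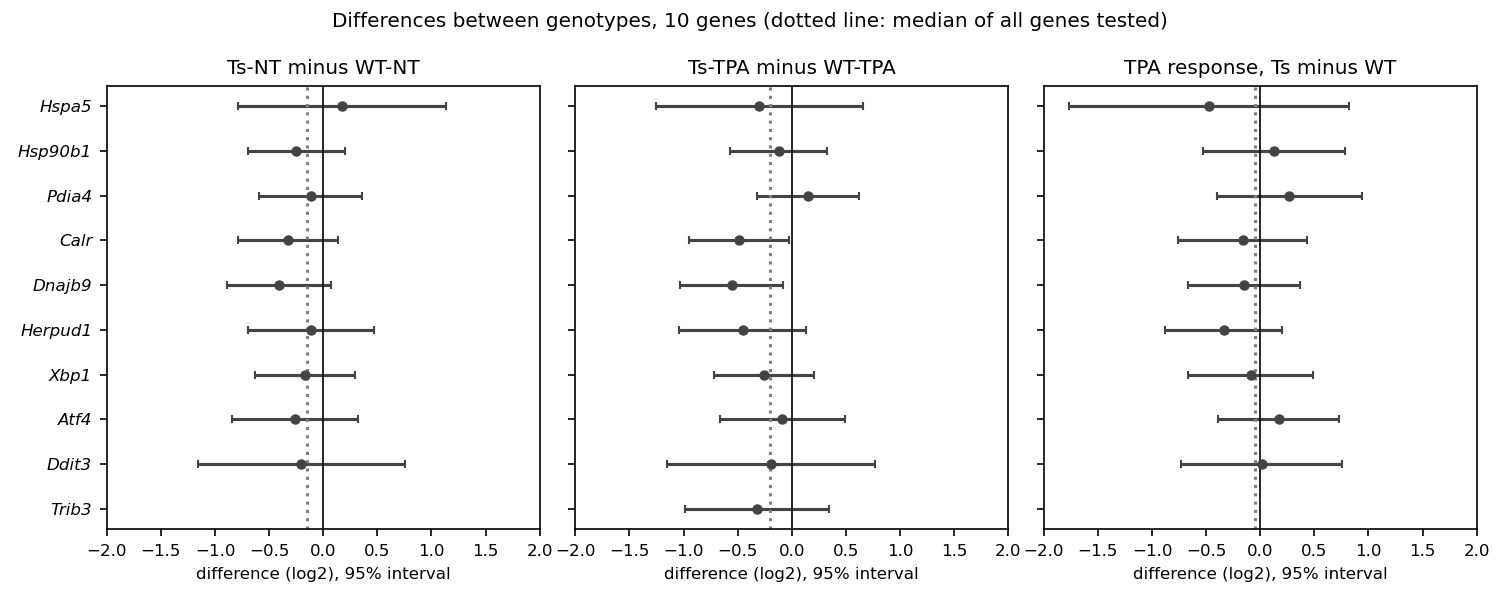
Log2 differences (horizontal axis, with 95% intervals) of the 10 genes between Ts-NT and WT-NT, between Ts-TPA and WT-TPA, and in the TPA response of Ts minus that of WT. Trib3, undetected in Ts-NT, is shown only after TPA. The dotted lines are the medians of all genes tested, -0.15, -0.20 and -0.05. No member had an adjusted p below 0.05, and the intervals of Hspa5 and Ddit3 were the widest in the untreated comparison.

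The TPA responses of the 2 genotypes could not be told apart for any of the 9 members other than Trib3 (adjusted p = 1.00 for each). For Herpud1 the response in Ts minus that in WT was -0.34 (95% interval -0.88 to 0.20). For Xbp1 it was -0.09 (-0.66 to 0.49) and for Ddit3 0.01 (-0.73 to 0.76). By the second probe it was -0.69 (-1.57 to 0.19) for Ddit3 and 0.02 (-0.55 to 0.60) for Herpud1. For Hspa5 it was -0.47 (-1.76 to 0.82), the widest interval of the 9. Calls of Hspa5, Herpud1 and Ddit3 in WT and none in Ts therefore do not show a difference between genotypes.

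Other genes of the pathway were taken from 5 lists. Of 15 chaperones and foldases tested, 2 rose in the mean TPA response (4.4% of all genes did) and 13 were not called, and 13 of the 15 exceeded the median of all genes. Creld2, a secreted factor induced by ER stress, rose by 0.62 ± 0.13 (adjusted p = 0.00911), and the disulfide isomerase Pdia6 rose by 0.64 ± 0.15 (adjusted p = 0.0205), each in 8 of 8 cultures. Pdia6 was no longer called without WT replicate 1 or 3, where its adjusted p reached 0.0703. Of 12 translocation genes 1 rose, Sec61a1, the pore of the translocon, by 0.43 ± 0.12 (adjusted p = 0.0446, 7 of 8 cultures), a call that held in 1 of the 8 fits that left out a culture.

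No gene of ER-associated degradation was called among 14 tested, and 13 of them exceeded the median of all genes. The lowest p values there were those of Selenos (0.30 ± 0.12, adjusted p = 0.148, by its dimmer probe) and Ube2j1 (0.26 ± 0.15, adjusted p = 0.303). Of 5 sensors and regulators none was called. The lowest p values were those of 2 membrane-bound transcription factors, Creb3 (-0.41 ± 0.14, adjusted p = 0.0856) and Creb3l2 (adjusted p = 0.0898). Creb3l2 was detected on 5 of 16 arrays and on none in Ts-NT, so no size of change is given for it.

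Among 19 targets of ATF4 and CHOP, 2 rose and 4 fell, beside 4.4% and 6.28% of all genes, and the list median was -0.18. Ppp1r15a (GADD34), which directs the phosphatase that restores translation, rose by 0.82 ± 0.16 (adjusted p = 0.00672), and it was also called in WT alone, at 0.95 (adjusted p = 0.0407). Chac1, which degrades glutathione, rose by 0.82 ± 0.18 (adjusted p = 0.0139). Both rose in 8 of 8 cultures, and both calls held in each fit that left out 1 culture. Chac1 went from 10.59, 11.19, 12.20 and 11.55 to 12.44, 11.33, 12.83 and 12.60 in WT, and from 10.75, 10.96, 11.67 and 11.45 to 11.99, 11.07, 12.45 and 12.25 in Ts.

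The 4 that fell were Shmt2, Stc2, Psat1 and Ddit4. Shmt2, the mitochondrial serine hydroxymethyltransferase, fell by 0.67 (SE 0.13, adjusted p = 0.00848) and Stc2, a secreted glycoprotein, fell by 0.62 (SE 0.14, adjusted p = 0.0175), each in 8 of 8 cultures. Stc2 was no longer called without Ts replicate 4 or WT replicate 3, where its adjusted p reached 0.0590. Psat1, of serine synthesis, and Ddit4, an inhibitor of mTORC1, fell by 0.42 and 0.52 (adjusted p = 0.0477 and 0.0491). They are named after their values were seen, and they passed in 0 and 1 of the 8 fits without 1 culture. Ppp1r15a was the only gene of the 5 lists called in WT alone, and none was called in Ts alone or between genotypes.

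**Figure D4:**
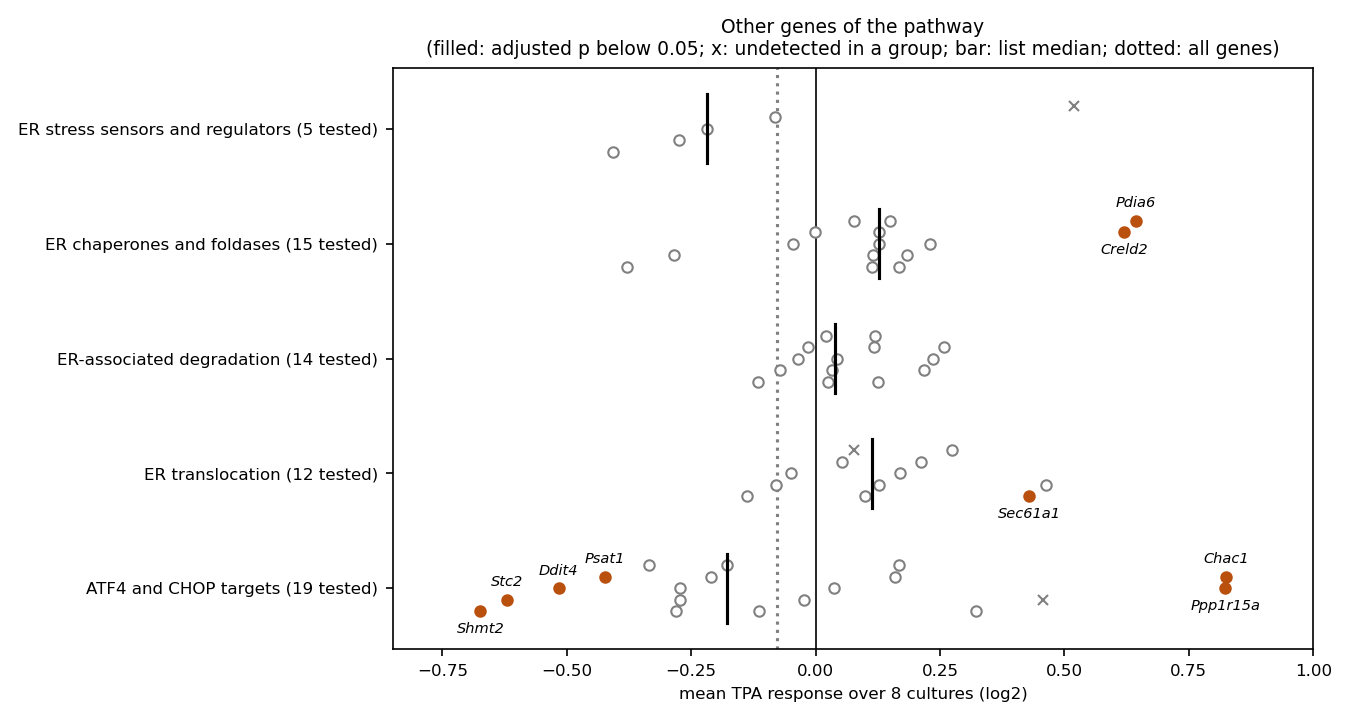
Mean TPA response over 8 cultures (horizontal axis, log2) of each tested gene in 5 other lists (rows), with filled circles for genes with an adjusted p below 0.05, crosses for 3 genes undetected on all arrays of a group, a black bar for the list median and a dotted line for the median of all genes at -0.08. Creld2, Pdia6, Sec61a1, Chac1 and Ppp1r15a rose, and Shmt2, Stc2, Ddit4 and Psat1 fell.

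The promoter letters shown above gave another way to group genes. In all, 49 genes of the reference had ERSE or ERSE-II in their window and 16 of them were tested here. Creld2, Herpud1 and Pdia6 were called in the mean response, all higher, where 4.4% of all genes were called higher. In that response 12 of the 16 exceeded the all-gene median, with 0.15 as their own. In WT Herpud1 and Hspa5 were called, both higher, where 1.58% of all genes were. There 14 of 16 exceeded the all-gene median, and their own median was 0.23. In Ts none was called, against 1.06% of all genes, and 11 of 16 exceeded the all-gene median. Leaving out the 4 members among the 16, the medians of the other 12 were 0.16 in WT, -0.01 in Ts and 0.12 in the mean response. Of these 12, Creld2, Pdia6, Dnajc3 and Syvn1 were also in the 5 lists above. Ddit3 and Xbp1, the members with the largest called rise and fall in the mean response, had none of the 4 motifs in their windows.

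How the members varied together was described over the 16 arrays, which share cultures, treatment and array scale. The highest correlations were between Dnajb9 and Herpud1 (Pearson's r = 0.81), Herpud1 and Ddit3 (0.77), Calr and Dnajb9 (0.75), and Calr and Ddit3 (0.74). Hspa5 went with Ddit3 (0.69). Xbp1 was at -0.67 with Ddit3, -0.50 with Herpud1 and with Hspa5, and -0.40 with Calr. Its other values were -0.35 with Pdia4, -0.19 with Dnajb9, -0.17 with Trib3, 0.01 with Hsp90b1 and 0.22 with Atf4.

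Among all genes tested, the 3 whose pattern over the 16 arrays was most like that of Ddit3 were Chac1 (r = 0.94), Ppp1r15a (0.92) and Oser1 (0.92). For Herpud1 they were Cpeb2 (0.92), Rnf185 (0.90) and Abhd2 (0.89), and for Dnajb9 they were Rnf185 (0.91), Snap23 (0.89) and Pcmt1 (0.89). For Calr they were Gabarap (0.91), Msn (0.90) and Ppp1r15a (0.90). For Xbp1 they were Kank1 (0.91), Hspb1 (0.90) and Ces2g (0.90). Chac1 and Ppp1r15a were in the list of ATF4 and CHOP targets, and the other genes named here were in none of the 5 lists.

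The remaining members had no pattern as close. The best r was 0.80 for Hspa5 (Rhbdd1, then Ghr and Abca12 at 0.78), 0.78 for Atf4 (Dnajb2, then Bcl2l1 and Lrrk1 at 0.76), 0.76 for Hsp90b1 (Hs6st1, then Ndufa7 and Srsf2 at 0.75) and 0.75 for Pdia4 (Copg1, then Mgat4b at 0.72 and Flt1 at 0.71). For Trib3, near background, they were Psg23 (0.83), Gpbp1l1 (0.74) and Dcn (0.71). The choice of the best of many genes raises all these values.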

How the data were processed

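RNA of 8 keratinocyte cultures, each untreated and treated, was measured on 16 one-color Illumina MouseRef-8 arrays, 4 per group. The authors deposited raw intensities with detection p-values (25697 probes), and log2 values made with vsn. For the scanner and for software versions the sources used here give nothing. The vsn model (arsinh transform, robust fit) was rewritten in R 4.3.3 and applied to the raw intensities, and its values correlated at 0.958 to 0.964 with the deposited log2 values. After the detection filter 8317 probes of 6063 named genes were fitted with limma 3.58.1 (lmFit, eBayes), with Benjamini-Hochberg adjustment over all probes. TPA comparisons had the culture as a block, as in the methods, and genotypes were compared on 16 arrays without one. Fits were checked on simulated data. Array number limits the precision.

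Arrays of the same number deviated together across genotypes (correlations 0.24 to 0.57) and within them (0.07 to 0.45). Within a genotype, replicate 4 was not set apart from other numbers. Its value in Ts was 0.07 against up to 0.10 with another number, and in WT both were 0.19. The sources do not say what numbers have in common between genotypes. Alternatives were the deposited values, quantile normalization, neqc, centring, 2 other filters, the block, and leaving out replicates. All members were named, with genes of 5 other lists that were called (up to 4 a list, otherwise the 2 of lowest p) and, for each member, the 3 genes most correlated with it. Members and lists were chosen with earlier results of these data known.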

Additional observations from a re-analysis of the deposited data

Results flagged for a closer look

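In 48 sets of 4 arrays (12 member probes in 4 groups), 3 had an extreme array that stood far from the others by Dixon's test, where chance gives about 1 in 20. Hspa5 in Ts-TPA replicate 2 was the lowest of its group at 7.18, with the next at 9.30 (log2). Calr in WT-TPA replicate 2 was the lowest at 9.93, with the next at 10.31. Trib3 in Ts-TPA replicate 4 was the highest at 6.46, with the next at 5.53, and it was the only Ts array that detected this gene.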

How the results depend on the processing

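Members called in WT with TPA numbered 3, but 1 (Hspa5) without a detection filter, 0 without the culture as a block (no paired fit), and 0 to 2 when 1 culture was left out. In Ts the count was 0, and 1 with the deposited values (Xbp1) or quantile normalization (Ddit3). In the mean response 3 were called, 5 with quantile normalization or with arrays centred (Hspa5 and Calr added), 1 without the block (Xbp1), and 2 to 5 with 1 culture left out. No member was called between genotypes or for the difference in response under any alternative run, with or without the replicate block. Of 820 values of single members under an alternative, 794 kept their side of the threshold, 14 lost a call, 12 gained one, and none with a call on either side changed sign; 65 uncalled values did. Over all genes the counts moved too: 20 to 307 in WT (161 reported), 24 to 122 in Ts (64), 242 to 739 in the mean response (648), 0 to 96 between untreated genotypes (4) and 0 to 141 after TPA (1). The cause was not tested. Trib3 lay near background, where depth of signal limits any comparison.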
